A study of Mus musculus with 14 samples.

Results

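The genes described here are the interleukin 33 gene Il33 and 6 genes for receptors or inhibitors of the interleukin 1 (IL-1) and interleukin 6 (IL-6) families, namely Il1rl1, Il1r1, Il1rap, Il18bp, Il6ra and Il6st. They were taken from the table by gene symbol. All 7 were found among the 36118 genes of the deposited table, and all 7 are among the 16637 genes that passed a filter on low counts and were tested. RNA of the hippocampus, a forebrain region needed for memory, was sequenced from 14 newborn C57/BL6 mice with 1 library per mouse. The 4 groups were wild type mice in room air (WT-RA, n = 4), wild type mice in hyperoxia (WT-O2, n = 4), gasdermin D (GSDMD) knockout mice in room air (KO-RA, n = 3) and GSDMD knockout mice in hyperoxia (KO-O2, n = 3). Hyperoxia was 85% O2 from postnatal day 1 to day 14, and tissue was taken on day 15. The knockout was present in all cells of the animal and from before birth, so no result can be assigned to 1 cell type or to the time of exposure. Mouse GSD408 has hyperoxia in its title and room air in its treatment field, and it was counted as WT-O2.

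IL-33 is kept in the nucleus and acts as an alarm signal when a cell is damaged; in mouse brain it is made mainly by oligodendrocytes and astrocytes. It binds the receptor ST2, the product of Il1rl1, which signals together with the co-receptor IL-1RAcP, the product of Il1rap. IL-1 alpha and IL-1 beta use the same co-receptor with IL-1R1 (Il1r1), IL-18 is neutralised by the secreted protein IL-18BP (Il18bp), and IL-6 binds IL-6R alpha (Il6ra), which recruits the signalling subunit gp130 (Il6st). GSDMD forms the membrane pores through which IL-1 beta and IL-18 leave inflamed cells, and the comparisons ask whether RNA of this ligand and these receptors differed with hyperoxia, with the knockout, or with both.

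The sequences ahead of the start sites are shown for Il33, the gene with the only called difference, and for Il1rap and Il6st, whose levels varied together most closely among the mice of a group. Each run is the 250 bases just before a RefSeq transcript start in build GRCm38.p6, read 5′ to 3′ on the gene's strand; this build is not the one behind the counts, and its coordinates are used for the sequences alone. The runs are at chr19:29924863-29925112 and chr19:29945540-29945789 (Il33, start sites 1 and 2), chr16:26581455-26581704 (Il1rap) and chr13:112463820-112464069 (Il6st), all on the plus strand. Capitals mark the matches, on either strand, to 4 short motifs. The GC box was searched with the letters GGGCGG. The box named after its letters, CCAAT, was the next. The TATA element was searched with the letters TATAA. The core of the hypoxia response element was searched with ACGTG.
Il33 start site 1: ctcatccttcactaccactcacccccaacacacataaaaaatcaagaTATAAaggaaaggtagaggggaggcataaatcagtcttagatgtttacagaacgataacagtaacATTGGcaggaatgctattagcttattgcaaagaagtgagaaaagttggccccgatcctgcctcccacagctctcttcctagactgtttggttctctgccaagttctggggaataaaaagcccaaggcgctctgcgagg
Il33 start site 2: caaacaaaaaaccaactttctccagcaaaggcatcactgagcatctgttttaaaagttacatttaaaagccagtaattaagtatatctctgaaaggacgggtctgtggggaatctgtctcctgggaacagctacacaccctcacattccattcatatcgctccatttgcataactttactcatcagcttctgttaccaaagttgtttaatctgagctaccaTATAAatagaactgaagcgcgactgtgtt
Il1rap: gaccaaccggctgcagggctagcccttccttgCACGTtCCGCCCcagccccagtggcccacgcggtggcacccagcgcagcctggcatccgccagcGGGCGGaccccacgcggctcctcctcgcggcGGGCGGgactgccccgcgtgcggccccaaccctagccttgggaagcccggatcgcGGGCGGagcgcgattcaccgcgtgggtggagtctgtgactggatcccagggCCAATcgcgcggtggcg
Il6st: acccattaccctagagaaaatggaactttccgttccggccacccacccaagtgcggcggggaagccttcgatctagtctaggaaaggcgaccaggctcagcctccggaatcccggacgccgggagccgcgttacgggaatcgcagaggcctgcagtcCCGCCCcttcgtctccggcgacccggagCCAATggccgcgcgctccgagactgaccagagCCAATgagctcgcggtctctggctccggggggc
The Il33 runs were rich in A and T, with 45.2% and 39.6% G or C against a median of 52.4% over 32851 promoters of this length. The second start site of Il33 had TATAA beginning 29 bases before the start, and the first had TATAA 203 bases and a CCAAT box 138 bases before it. The co-receptor genes had the opposite composition: Il1rap had 74.4% G or C, 30 CpG pairs and 4 GC boxes, and Il6st had 66% G or C, 26 CpG pairs, 1 GC box and 2 CCAAT boxes, against a median of 6 CpG pairs over all promoters. The letters were common in general, since 32.7% of the promoters held a GC box, 33.8% a CCAAT box, 22.8% a TATA element and 16.6% the hypoxia response core. None of the 10 runs of the 7 genes held the STAT site TTCNNNGAA (7.02% of all promoters) or the AP-1 site TGANTCA (6.75%).

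The libraries held 27272270 to 28257496 estimated counts, and counts per 1000000 (CPM) are given after scaling by TMM, a method that aligns the libraries on the bulk of their genes. The targeted gene Gsdmd was counted in every library, at 41 to 63 counts in WT and 22 to 42 in KO mice; these are sums over transcripts and do not show whether the allele is intact. The 10 hippocampal markers were present in all libraries, at summed levels of 700 to 1100 CPM in WT and 1331 to 1674 CPM in KO mice, but the genotypes differed in the makeup of the sample. The 10 striatal markers summed to 409 to 950 CPM in WT and 160 to 268 CPM in KO mice, and all 10 were called lower in KO in room air and in hyperoxia. The 12 markers of mature oligodendrocytes summed to 5154 to 20707 CPM in WT and 3497 to 6179 CPM in KO mice. The 12 microglial markers summed to 450 to 530 CPM over all libraries, and none was called in a pairwise comparison. The 8 markers of choroid plexus and ependyma varied widely among KO mice, and none was called in a pairwise comparison. They summed to 51.4 CPM in KO-RA mouse GSD489 and to 123 CPM in KO-O2 mouse GSD494. The other KO mice had 1740 to 3442 CPM and the WT mice 959 to 2460 CPM. In bulk tissue, fewer cells of a type and less RNA per cell cannot be told apart, and the WT mice carry the lower and the KO mice the higher animal numbers, so that genotype and whatever went with the numbering cannot be told apart.

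Per kilobase of the longest coding transcript, the signalling subunits were the most abundant of the 7. Il6st averaged 10.8 CPM per kilobase and Il1rap 10.5 CPM per kilobase over the 14 libraries. Il33 followed with 4.37, Il18bp with 1.88, Il1r1 with 1.22 and Il6ra with 0.989 CPM per kilobase. Il1rl1 was far below with 0.0965 CPM per kilobase, on 7 to 21 counts per library, and its values carry a large counting error. The receptors that bind the ligands were thus measured at lower levels per length than the subunits they share, and secreted and membrane forms of Il1rl1, Il1rap, Il6ra and Il6st were not separated in these gene sums.

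**Figure D1:**
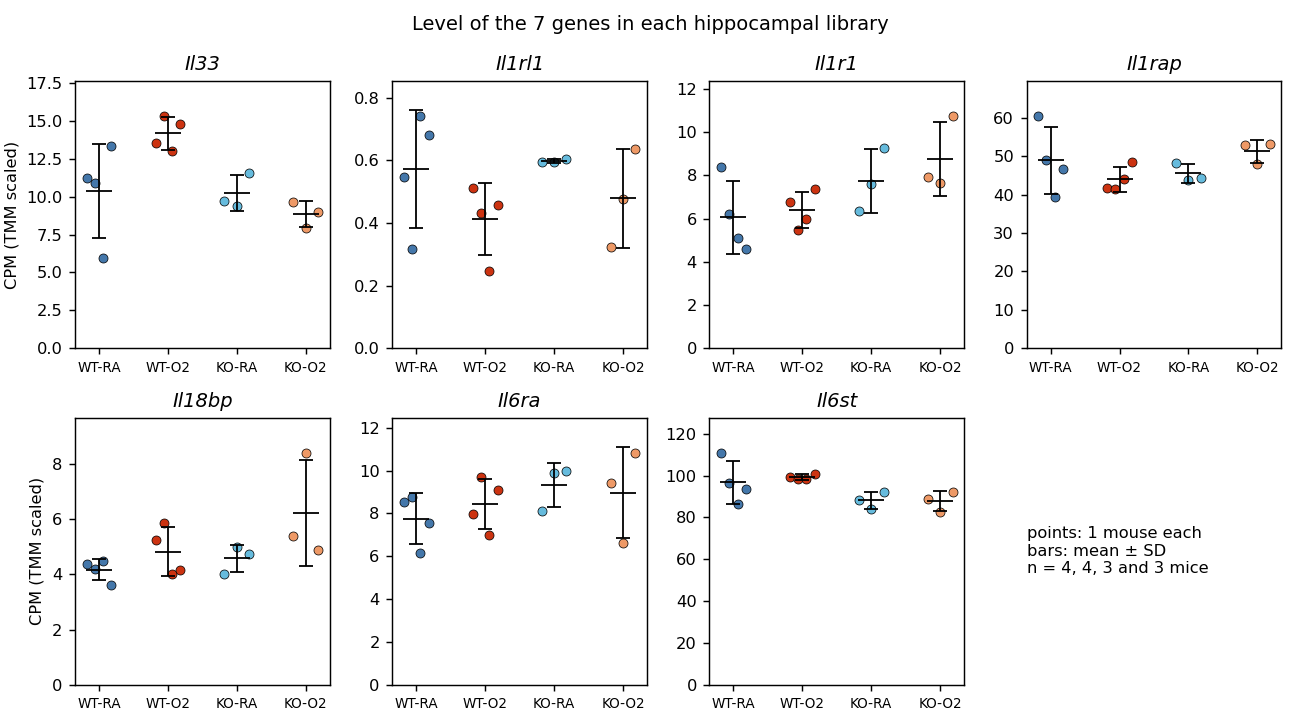
Level of the 7 genes in each library, in CPM after TMM scaling (vertical axes from 0), by group; each point is 1 mouse, and the bars are the mean ± SD. All 4 WT-O2 mice lie above all 3 KO-O2 mice for Il33 and Il6st, and below them for Il1r1.

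For a call, a group had to exceed the other by at least 25%, with an unadjusted p below 0.05 and a q below 0.1, where q is the p of edgeR's quasi-likelihood test after Benjamini-Hochberg adjustment over all genes tested. Hyperoxia in WT mice called 0 of the 7 genes, against 0.643% of all genes tested, and 1 gene had an unadjusted p below 0.05, as had 12.2% of all genes. Hyperoxia in KO mice also called 0 of the 7, against 0.012%, and 1 gene had an unadjusted p below 0.05, against 4.86%. KO-RA against WT-RA called 0 of the 7, against 10.4%, and no gene had an unadjusted p below 0.05, against 23.5%. KO-O2 against WT-O2 called 1 of the 7, against 6.86%, and 3 had an unadjusted p below 0.05, against 18.7%. DESeq2 gave the same numbers of calls. The median log2 fold change of the 7 was 0.08 in WT and -0.01 in KO for hyperoxia, 0.07 for KO-RA against WT-RA and 0.21 for KO-O2 against WT-O2, while the medians of all genes were -0.0058, -0.0020, -0.0067 and -0.0089.

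Il33 was the gene with the call: its level in hyperoxia was lower in KO mice. Of the WT-RA mice, GSD398 had 11.2, GSD399 had 10.9, GSD400 had 5.97 and GSD401 had 13.4 CPM. Of the WT-O2 mice, GSD404 had 13.6, GSD405 had 15.3, GSD406 had 13.03 and GSD408 had 14.8 CPM. Of the KO mice, GSD489, GSD490 and GSD496 in room air had 9.73, 9.37 and 11.6 CPM, and GSD491, GSD494 and GSD495 in hyperoxia had 9.63, 7.96 and 9.0005 CPM. The WT-O2 mice were thus tightly grouped at the top and the KO-O2 mice near the bottom with no overlap, while WT-RA mice spanned both. Mouse GSD400 was lower than every other mouse. It had the lowest sums of its group for several marker lists, among them oligodendrocyte (8211 CPM), astrocyte (4044 CPM), striatal (603 CPM) and thalamic markers (135 CPM). Its neuron marker sum was the highest of the group, at 8325 CPM. The means ± SD ran in the order WT-O2 (14.2 ± 1.07 CPM, n = 4), WT-RA (10.4 ± 3.13 CPM, n = 4), KO-RA (10.2 ± 1.19 CPM, n = 3) and KO-O2 (8.86 ± 0.843 CPM, n = 3), and each group overlapped the next in this order.

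In hyperoxia, Il33 was 1.60-fold lower in KO than in WT mice, with a log2 fold change of -0.68 ± 0.19 (SE; edgeR, q = 0.0558) and a 95% interval from -1.09 to -0.26. In room air, the genotypes had nearly equal means, with a log2 fold change of -0.02 ± 0.19 and an interval from -0.43 to 0.39 (edgeR, q = 0.973). Hyperoxia in WT mice gave 0.45 ± 0.18, a 1.37-fold higher mean that missed the q threshold (edgeR, q = 0.308), and without WT-RA mouse GSD400 it was 0.26. The means of KO mice differed the other way with hyperoxia, by about the SE of the fit, at -0.21 ± 0.21 (edgeR, q = 0.997). The response of KO mice minus that of WT mice, the interaction, was -0.66 ± 0.27 for Il33 (edgeR, q = 1.00), and it was not called.

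The call in hyperoxia depended on single mice and on the account taken of tissue makeup. The log2 fold change stayed between -0.74 and -0.61 when 1 mouse of the compared groups was left out, but edgeR's q was 0.125 without WT-O2 mouse GSD405, 0.124 without WT-O2 mouse GSD408, and 0.104, 0.188 and 0.155 without KO-O2 mice GSD491, GSD494 and GSD495. With GSD408 counted as WT-RA the value was -0.66 (edgeR, q = 0.154). The markers of mature oligodendrocytes moved with the same contrast, 7 of 12 being called lower in KO mice and summing to 3497 to 6179 against 5154 to 13805 CPM. In room air, 12 of 12 were called lower in KO mice, with mean sums of 4883 CPM in KO-RA and 14881 CPM in WT-RA. The Il33 value of that comparison was -0.02. The mean sum of WT-O2 mice was 9538 CPM, lower than in WT-RA, whereas their Il33 mean was higher. With the mean standardized level of these markers as a covariate, the KO-O2 against WT-O2 value of Il33 was -0.34 (edgeR, q = 0.436). The hyperoxia difference of Il33 in WT mice was then 0.69 and called (edgeR, q = 0.0642). With the striatal and thalamic marker levels as covariates, the KO-O2 against WT-O2 value was -0.12 (edgeR, q = 0.981). That fit made 4 calls over all genes in this comparison, against 1142 without the covariates. The WT-O2 mice had 13.03 to 15.3 CPM of Il33 over oligodendrocyte sums of 5154 to 13805 CPM, and the KO-O2 mice 7.96 to 9.63 CPM over 3497 to 6179 CPM. Genotype and tissue makeup went together in these mice, and their parts in the Il33 difference cannot be told apart. Summed astrocyte markers (10 genes) moved the other way, with 4006 to 4548 CPM in WT-O2 and 4970 to 5382 CPM in KO-O2 mice. Of the 10, 8 had a higher level with the knockout, and 2 of these were called. The other 2 went down, 1 of them with an unadjusted p below 0.05 (edgeR), and neither was called.

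**Figure D2:**
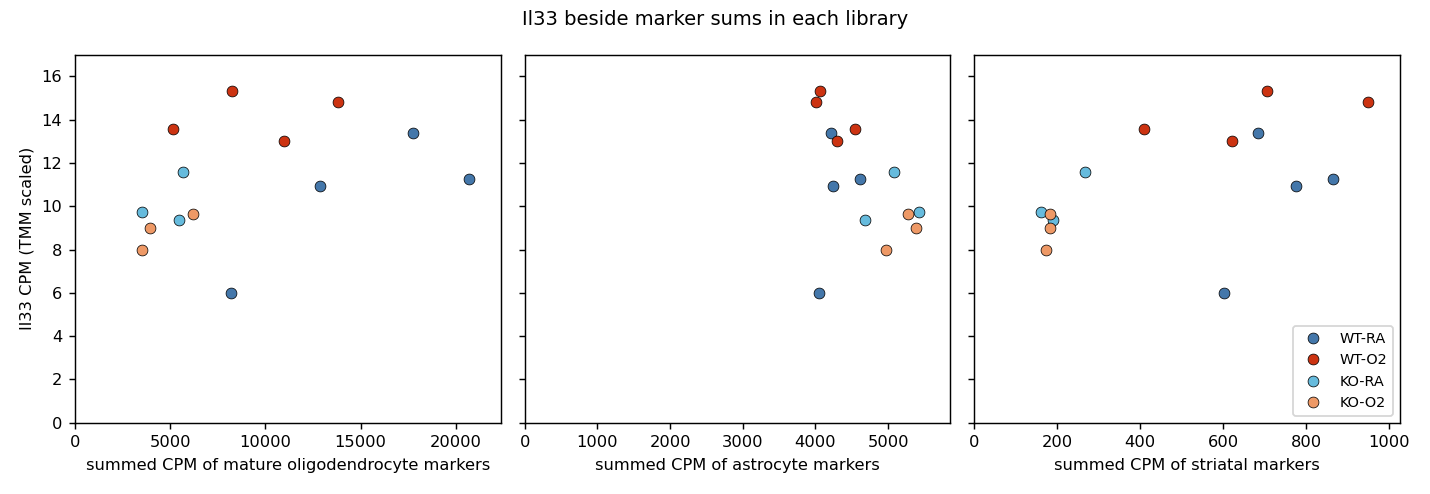
Il33 (vertical axis, CPM) against the summed CPM of 12 mature oligodendrocyte, 10 astrocyte and 10 striatal markers (horizontal axes) in each of the 14 libraries, coloured by group. KO mice lie at low oligodendrocyte and striatal sums and high astrocyte sums, and WT-O2 mice have 13.03 to 15.3 CPM of Il33 over oligodendrocyte sums from 5154 to 13805 CPM.

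**Figure D3:**
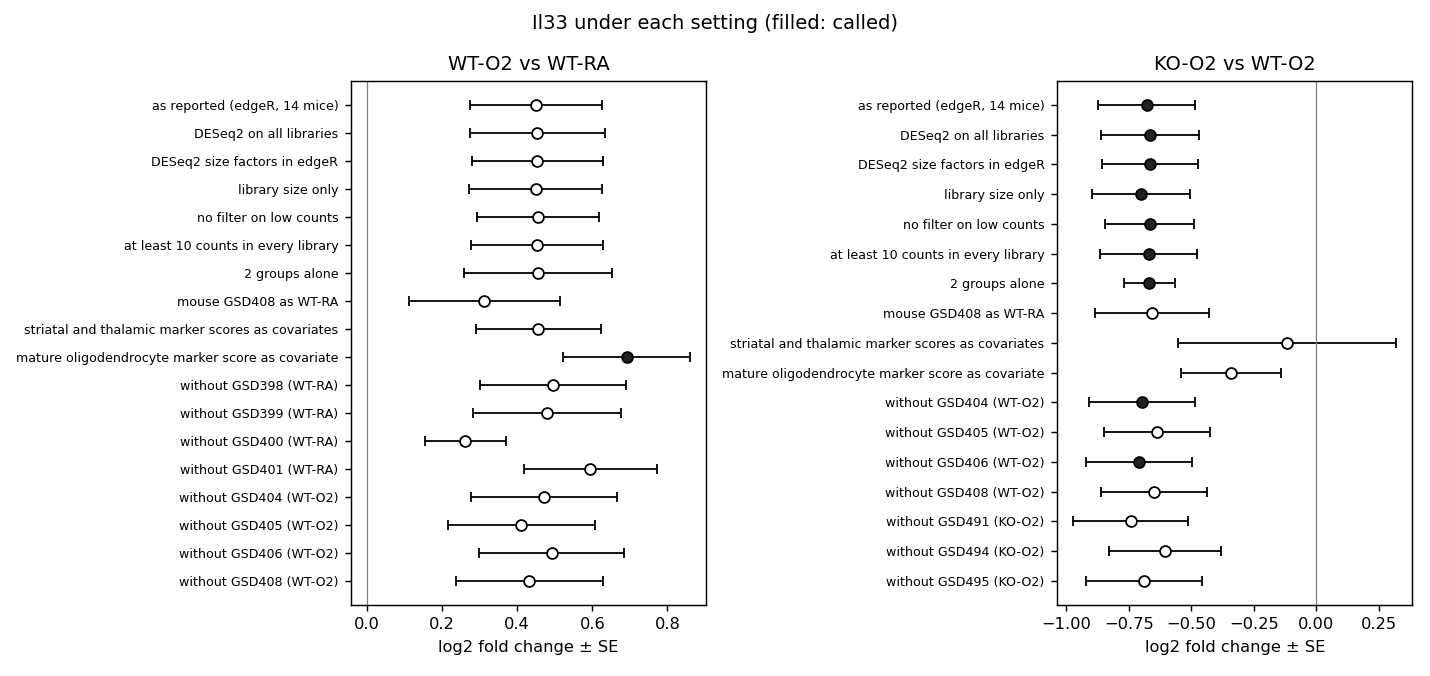
Log2 fold change of Il33 ± SE in WT-O2 against WT-RA (left) and KO-O2 against WT-O2 (right) as reported and under each other setting; filled points were called. The direction is the same in every fit drawn, and on the right the values move from -0.68 to -0.34 and -0.12 with the marker covariates.

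Il1rl1, which encodes the IL-33 receptor, had 0.317 to 0.742 CPM in WT-RA, 0.248 to 0.513 CPM in WT-O2, 0.594 to 0.605 CPM in KO-RA and 0.322 to 0.638 CPM in KO-O2 mice. In the order of their means each group overlapped the next. The highest and lowest, KO-RA on 16 to 17 counts and WT-O2 on 7 to 14, did not overlap each other. These groups differ in both genotype and exposure, and they were not compared in a test. Its log2 fold change with hyperoxia was -0.47 ± 0.33 in WT (edgeR, q = 0.616) and -0.32 ± 0.37 in KO mice (edgeR, q = 0.997), with intervals from -1.17 to 0.23 and from -1.11 to 0.47. Both intervals are wide, on few counts and with 3 or 4 mice per group. They hold 0 and also differences well beyond the fold change needed for a call.

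Il1r1, the receptor through which IL-1 signals, had 8.40, 6.20, 5.09 and 4.59 CPM in the WT-RA mice, in the order of mice given for Il33. It had 6.78, 5.48, 5.98 and 7.36 CPM in WT-O2, 6.35, 7.59 and 9.29 CPM in KO-RA and 7.91, 7.63 and 10.8 CPM in KO-O2 mice. The KO-O2 mice all lay above the WT-O2 mice, whereas in room air the genotypes overlapped. Il1r1 was 1.37-fold higher in KO than in WT mice under hyperoxia by means, with a log2 fold change of 0.45 ± 0.20 that was not called (edgeR, q = 0.230) and was 0.28 without KO-O2 mouse GSD495. With the oligodendrocyte covariate it was 0.64 (edgeR, q = 0.194), and with the striatal and thalamic covariates 0.92 ± 0.42 (edgeR, q = 0.715). KO-RA against WT-RA gave 0.35 ± 0.20 (edgeR, q = 0.318), and without WT-RA mouse GSD398, the highest of its group, this was 0.56 and called (edgeR, q = 0.0720); it was 0.63 with the oligodendrocyte and 0.77 with the striatal and thalamic covariates (edgeR, q = 0.276 and 0.736). Hyperoxia gave 0.08 ± 0.19 in WT and 0.18 ± 0.21 in KO mice (edgeR, q = 0.919 and 0.997).

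Il1rap, the co-receptor that IL-1 and IL-33 share, had 60.5, 49.0, 39.4 and 46.7 CPM in WT-RA, 41.8, 41.5, 44.2 and 48.4 CPM in WT-O2, 48.2, 43.9 and 44.4 CPM in KO-RA and 52.9, 47.9 and 53.1 CPM in KO-O2 mice. The WT-RA mice spanned all other groups, and of the WT-O2 mice only GSD408 reached into the KO-O2 range. Its log2 fold change with hyperoxia was -0.15 ± 0.10 in WT and 0.17 ± 0.12 in KO mice, and the interaction was 0.33 ± 0.15 (edgeR, q = 1.00). Without WT-RA mouse GSD398, the highest of all, the WT value was -0.03 and the interaction 0.21. KO-O2 against WT-O2 gave 0.22 ± 0.11 (edgeR, q = 0.292). With the oligodendrocyte marker level as a covariate that difference was 0.42 and called (edgeR, q = 0.0625), and with the striatal and thalamic covariates it was 0.39 (edgeR, q = 0.670).

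Il18bp, the decoy that binds IL-18, had 4.36, 4.19, 4.49 and 3.62 CPM in WT-RA, 5.24, 5.84, 4.001 and 4.14 CPM in WT-O2, 4.01, 4.97 and 4.73 CPM in KO-RA and 5.37, 8.40 and 4.88 CPM in KO-O2 mice. One KO-O2 mouse, GSD494, was higher than all others, and each group overlapped the next. The log2 fold change with hyperoxia in KO mice was 0.44 ± 0.20 (edgeR, q = 0.997), and it was 0.16 without GSD494. KO-O2 against WT-O2 gave 0.37 ± 0.19 (edgeR, q = 0.304), 0.09 without that mouse and 0.17 with the oligodendrocyte covariate. Hyperoxia in WT mice gave 0.21 ± 0.18 (edgeR, q = 0.698). Il18 itself, the cytokine that IL-18BP neutralises, had 14.2 to 18.7 CPM over all libraries and no log2 fold change beyond 0.16 in a pairwise comparison.

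Il6ra, the subunit that binds IL-6, had 6.15 to 8.77 CPM in WT-RA, 7.01 to 9.68 CPM in WT-O2, 8.13 to 9.997 CPM in KO-RA and 6.64 to 10.8 CPM in KO-O2 mice, and all groups overlapped. Its log2 fold changes were 0.12 ± 0.16 with hyperoxia in WT, -0.06 ± 0.18 in KO, 0.27 ± 0.17 for KO-RA against WT-RA and 0.09 ± 0.17 for KO-O2 against WT-O2, and the lowest q among them was 0.376 (edgeR). The genotype differences were larger with covariates, at 0.57 and 0.28 with the oligodendrocyte level and 0.82 ± 0.41 and 0.65 ± 0.41 with the striatal and thalamic levels, in room air and hyperoxia, and were not called (edgeR, lowest q 0.235). The KO mice with low choroid plexus and ependyma sums, GSD489 and GSD494, were each the lowest of their group for Il6ra and Il1r1. They were not both the lowest for any other gene described here. For Il18bp, GSD494 was the highest and GSD489 the lowest of its group. Whether these levels went with the marker sums was not tested.

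Il6st, the signalling subunit used by IL-6, LIF, CNTF and oncostatin M, was measured on the most counts of the 7, 2253 to 3053 per library. Its level was 111, 96.5, 86.6 and 93.5 CPM in WT-RA, 99.5, 98.3, 98.3 and 101 CPM in WT-O2, 88.4, 84.1 and 92.0 CPM in KO-RA and 88.6, 82.6 and 92.2 CPM in KO-O2 mice. The WT-O2 mice differed by an SD of only 1.28 CPM and all lay above the KO-O2 mice, whereas WT-RA mice overlapped both KO groups. KO-O2 was 1.13-fold lower than WT-O2, below the fold change needed for a call, with a log2 fold change of -0.18 ± 0.07 (edgeR, q = 0.191) that was -0.09 with the oligodendrocyte covariate (edgeR, q = 0.677). KO-RA against WT-RA gave -0.14 ± 0.07 (edgeR, q = 0.281). With hyperoxia the 95% intervals were from -0.11 to 0.18 in WT and from -0.17 to 0.16 in KO mice.

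In all, groups did not overlap for 3 of the 7 genes between KO-O2 and WT-O2 (Il33, Il1r1 and Il6st), against 19% of all genes tested. The groups overlapped for all 7 in the other pairwise comparisons, while the share of all genes without overlap was 5.99% for WT-O2 and WT-RA, 11.8% for KO-O2 and KO-RA and 19.6% for KO-RA and WT-RA. In the interaction 0 of the 7 were called, as were 0% of all genes, and 1 had an unadjusted p below 0.05, against 4.05%. The comparisons that share a group of mice are not independent of each other.

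**Figure D4:**
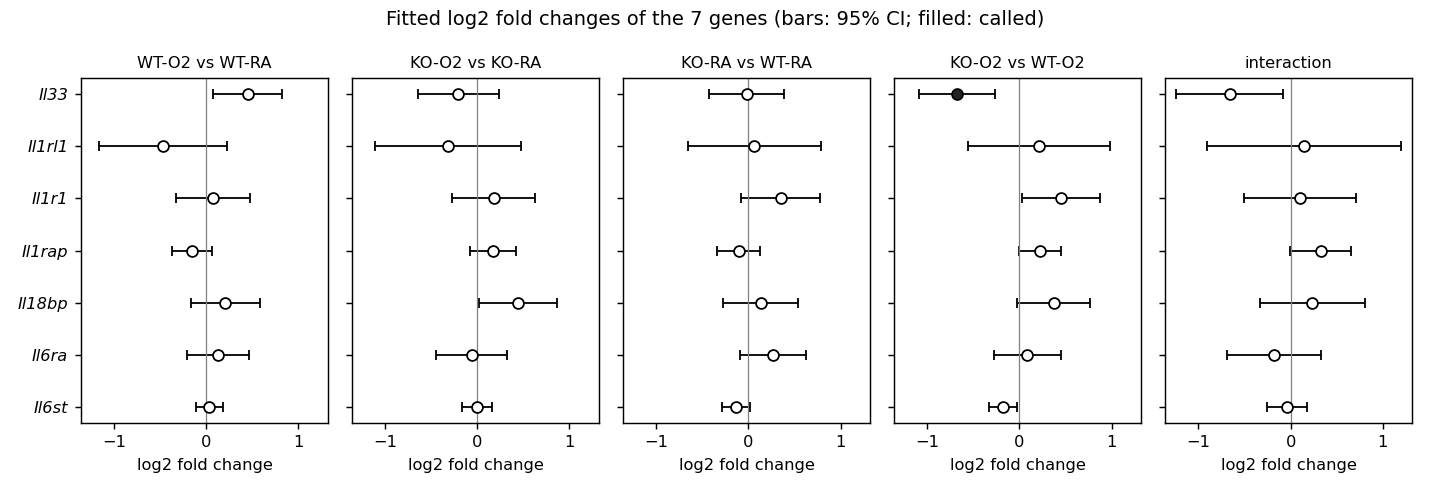
Log2 fold changes of the 7 genes (horizontal axes) with 95% intervals from edgeR in the 4 pairwise comparisons and the interaction; the filled point is the call. Il33 in KO-O2 against WT-O2, at -0.68, is the filled point, and the intervals of Il1rl1 are the widest in each panel.

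Within groups, the 7 genes varied together to different degrees. After subtracting group means, the log2 CPM of Il1rap and Il6st had a Pearson r of 0.88 over the 14 libraries, and Il1r1 and Il6st had 0.78. Il1rap and Il6st both spread most in WT-RA, where GSD398 was the highest and GSD400 the lowest mouse for each. Their SDs there were 8.75 and 10.3 CPM, against at most 3.18 and 4.83 CPM in the other groups. The r of 0.88 thus leans on the WT-RA mice. Il33 had an r of 0.605 with Il6ra, 0.594 with Il6st and 0.574 with Il1rap, and -0.204 with its receptor gene Il1rl1. These libraries share the marker differences given above, and the values are a description. Among 14441 genes of at least 1 CPM, the genes most like Il33 were Fundc1 and Fbxo2 (r = 0.93 each), those most like Il1rap were Plxnb1 (r = 0.98) and Phka1 (r = 0.97), and Scamp2 (r = 0.94) was among those most like Il6st. Il1r1 was most like Loxl3 and Rps27l (both r = 0.94), Il6ra most like Emp1 and Cd74 (both r = 0.91), Il18bp most like Supt20 and Muc3a (r = 0.888 and 0.875), and Il1rl1 most like Gm48119 and Arhgap19 (r = 0.93 and 0.86). These r were picked from the top of 14441 over 14 libraries, a choice that by itself gives high values, and none was tested.

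The other genes of the same pathways numbered 82, of which 70 passed the filter on low counts. The 12 that did not pass had at most 20 counts in a library, and they included the best known ligands. Il1b had 0 to 10 counts, Il6 had 0 to 7, Osm had 0 to 8 and the receptor antagonist gene Il1rn had 0 to 3, and these genes were not tested. Of the receptors, the decoy gene Il1r2 had 2 to 20 and the IL-18 receptor gene Il18r1 1 to 9 counts. The other 6 were Il36a and Il36b with no counts, Il1f10 with at most 1, Il27 with at most 5, and the chemokine genes Ccl2 and Cxcl1 with at most 9 and 10.

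Hyperoxia called none of the 70 in WT mice, where 9 had an unadjusted p below 0.05, and none in KO mice, where 3 had one (12.2% and 4.86% of all genes; DESeq2 also called 0 in each). Of the 9 in WT mice, 4 were higher and 5 lower in hyperoxia, and the 3 in KO mice were all higher. The 5 lower in WT mice included Sigirr, an inhibitory receptor of the IL-1 family. It had 1.31 ± 0.273 CPM in WT-RA and 0.796 ± 0.107 CPM in WT-O2 and a log2 fold change of -0.72 ± 0.24 (edgeR, q = 0.237). The interaction called 0 of the 70, and 4 had an unadjusted p below 0.05. The median log2 fold change of the 70 was -0.03 in WT and 0.04 in KO mice.

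KO-RA against WT-RA called 9 of the 70 (7 higher and 2 lower in KO), and KO-O2 against WT-O2 called 8 (6 higher and 2 lower), against 10.4% and 6.86% of all genes. Of all genes, 3.75% were called higher and 6.70% lower in room air, and 2.51% higher and 4.35% lower in hyperoxia. The median of the 70 was -0.01 in room air and 0.06 in hyperoxia, beside -0.01 over all genes in each. These comparisons share no mouse, and 6 genes were called in both, 66.7% of the first list and 75% of the second; over all genes 755 were called in both, 43.4% of 1738 and 66.1% of 1142.

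Of the 12 tested NF-kB and STAT3 response genes, 4 were called higher in KO in room air and 3 in hyperoxia, and none lower, while 3.75% and 2.51% of all genes were called higher. This list was chosen with earlier results of these data known, so the counts are a description, and the list was not tested as a set. Serpina3n, an acute phase protease inhibitor, was higher in KO by 0.65 ± 0.15 in room air and 0.53 ± 0.14 in hyperoxia on the log2 scale (edgeR, q = 0.0111 and 0.0437). Ptgs2, which encodes the prostaglandin enzyme COX-2, was higher by 0.58 ± 0.18 and 0.84 ± 0.18 (edgeR, q = 0.0563 and 0.0127), and the transcription factor gene Cebpd by 0.63 ± 0.19 and 0.65 ± 0.18 (edgeR, q = 0.0449 and 0.0532). Nfkbiz, an IkB family gene induced by IL-1 and the only call among the 25 genes of IL-1 receptor signalling in either comparison, was higher by 0.36 ± 0.13 and 0.56 ± 0.13 (edgeR, q = 0.0977 and 0.0202). Ptgs2 is also a gene of active neurons, and Cebpd and Serpina3n are expressed by astrocytes. Of the 10 astrocyte markers, 7 were higher and 3 lower in KO in room air, and 8 were higher and 2 lower in hyperoxia. The part of astrocytes in these values was not tested.

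Vcam1, an adhesion molecule, and Osmr, the oncostatin M receptor, were called higher in KO in room air alone, at 0.34 ± 0.07 and 0.36 ± 0.13 (edgeR, q = 0.00861 and 0.0943), and had 0.27 ± 0.07 and 0.19 ± 0.13 in hyperoxia; for Vcam1 the latter had a q of 0.0454 but missed the fold change needed (edgeR). Il1rapl1, a receptor of the IL-1 family found at neuronal synapses, was lower in KO by -0.54 ± 0.13 and -0.59 ± 0.13 (edgeR, q = 0.0142 and 0.0127), and its relative Il1rapl2 was called lower in hyperoxia, at -0.78 ± 0.23 (edgeR, q = 0.0605), beside -0.61 ± 0.22 in room air (edgeR, q = 0.101). Il36g, an epithelial IL-1 family ligand, was called higher in KO under hyperoxia, at 0.79 ± 0.25 (edgeR, q = 0.0845) on 44 to 45 counts against 23 to 30. Il36rn, the antagonist of the same receptor, is among the 9 calls in room air with 0, 19, 26 and 16 counts in WT-RA, 0 to 2 in WT-O2 and 0 in every KO library. It passed the filter on low counts through the WT-RA mice alone, and its call is given as these counts only. The calls were refitted in 23 other settings: that of Nfkbiz in room air was made in 6 of them, that of Osmr in 5 and that of Il36g in 11, and those of the other genes named here in 17 to 22. The 23 include fits that left out a mouse of a group outside the comparison, and such fits change the fold change little. When the striatal and thalamic marker levels were covariates, none of the 70 was called in either comparison, and the fit left 3 and 4 calls over all genes. Serpina3n then had 0.14 in room air and 0.079 in hyperoxia, and Vcam1 had 0.069 in room air. The values of Osmr, Ptgs2 and Il36g were also smaller than without covariates. Those of Nfkbiz, Cebpd, Il1rapl1 and Il1rapl2 were larger in size, with 0.98 and 1.04 for Cebpd.

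**Figure D5:**
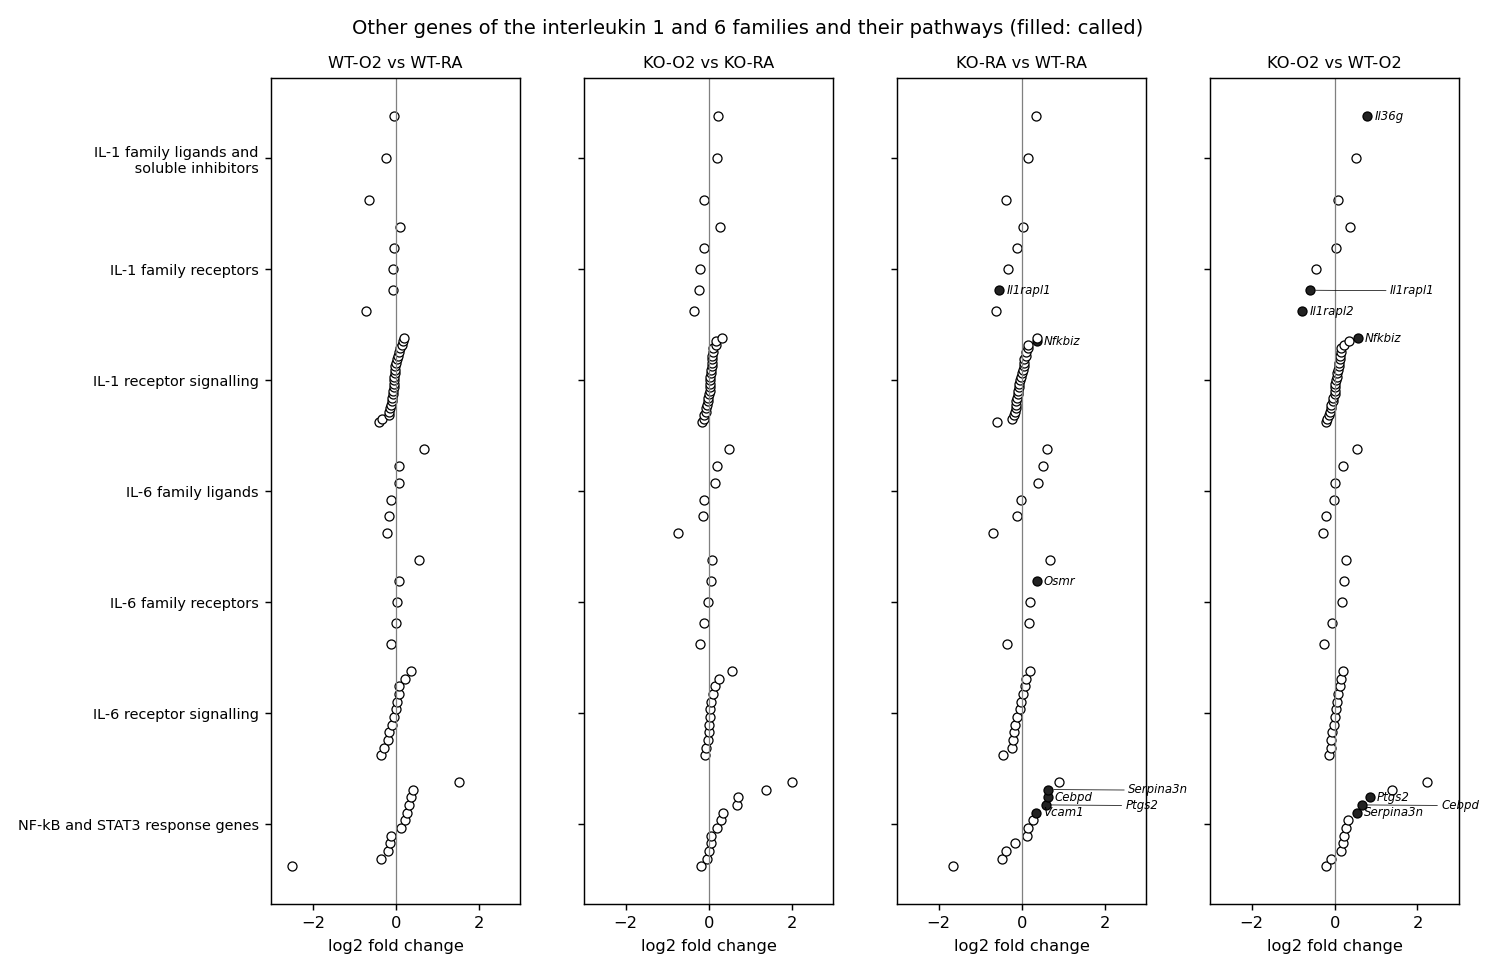
Log2 fold changes (horizontal axes) of other tested genes of the interleukin 1 and 6 families and their pathways, by list, in the 4 pairwise comparisons; filled points were called and are named. Il36rn is not drawn because it had no counts in KO mice, and 1 further gene is left out. No point is filled in either comparison of hyperoxia with room air.

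Several ligand and receptor genes beside the 7 were measured without a call. The IL-1 alpha gene Il1a had 11 to 38 counts per library, Il11 had 5 to 19, Lif 4 to 18 and Cntf 12 to 27, all below 1.4 CPM. Cntfr, the CNTF receptor, had 51.2 to 92.6 CPM and Lifr, which pairs with gp130, 25.7 to 36.8 CPM. In KO against WT their log2 fold changes were -0.34 ± 0.16 and 0.20 ± 0.11 in room air and -0.26 ± 0.16 and 0.22 ± 0.11 in hyperoxia (edgeR, lowest q 0.211). Il1rl2 and Il18rap, which neighbour Il1r1 and Il1rl1 in a receptor gene cluster on chromosome 1, had 0.697 to 1.58 and 1.00 to 2.33 CPM. Their log2 fold changes lay between -0.45 and 0.37 in the 4 pairwise comparisons, and none was called.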

How the data were processed

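Polyadenylated RNA was sequenced as paired reads of 150 bases from 1 hippocampal sample per mouse. The authors deposited estimated counts per Ensembl gene, made with kallisto on an Ensembl release of GRCm39 that the study's methods name and summed over transcripts with tximport; the versions of these tools are not given in the sources used here, and the labels also name DESeq2. The deposited values need not be whole and were rounded. Library totals were 27272270 to 28257496, which limits precision for genes of few counts. Genes were filtered with filterByExpr (minimum count 10) and scaled by TMM in edgeR 4.0.16 (R 4.3.3, limma 3.58.1), and 16637 of 36118 genes were tested with the quasi-likelihood test over all 14 libraries, with 1 coefficient per group and no covariate. p-values were adjusted by the Benjamini-Hochberg method over all genes tested in each of the 5 comparisons. Alternatives were DESeq2 1.42.0, other scalings and filters, the compared groups alone, stricter thresholds, GSD408 as WT-RA, marker levels as covariates and leaving out each mouse in turn; the oligodendrocyte covariate was chosen after seeing the data. The test was checked on simulated counts with known differences between hyperoxia and room air. These counts held no difference in tissue makeup or genotype, so the check does not bear on the comparisons of KO with WT mice. Groups came from the titles of the samples, and mice were taken as separate animals from their numbers.

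The 7 genes and the gene lists were chosen with earlier results of these data known. All 7 genes were named in every comparison; of the other pathway genes, those called and a fixed set of ligands and receptors were named, and Osm, Il27, Il36a, Il36b, Il1f10, Ccl2 and Cxcl1 were named after their counts were seen. Likeness was the Pearson r of log2 CPM with group means subtracted, over genes of at least 1 CPM. Sequences of the starts came from RefSeq on GRCm38.p6. Results of some single genes are not reported here; they are included in the counts and medians of their lists.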

Additional observations from a re-analysis of the deposited data

Results flagged for a closer look

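The response of Il33 to hyperoxia is listed for the test of the difference between genotypes, in which it was not called: the log2 fold change in KO minus that in WT mice was -0.66 ± 0.27 (SE; an unadjusted p below 0.05 in edgeR), with a 95% interval from -1.24 to -0.08. It did not pass the correction over all genes (edgeR, q = 1.00), and 4.05% of all genes had a p below 0.05 in the same test. The mean was higher in hyperoxia in WT mice, by 0.45 on the log2 scale, and lower in KO mice, at -0.21. Over the alternatives the difference lay between -0.86 and -0.47, and q between 0.576 and 1.00 throughout.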

How the results depend on the processing

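No paired analysis was possible because the replicate numbers follow the order of deposition and the labels tie no mouse of one group to a mouse of another. The 35 fold changes of the 7 genes were refitted to give 597 values: 549 kept their direction and their side of the threshold, 8 lost and 3 gained a call, and 37 reversed, of which 23 were fits without 1 mouse. With the striatal and thalamic covariates the reversed log2 fold changes were 0.52 for Il33, -0.20 for Il1rl1 and 0.021 for Il1rap in KO-RA against WT-RA, and -0.12 for Il1rl1 in KO-O2 against WT-O2. With the oligodendrocyte covariate they were 0.52 for Il33, -0.36 for Il1rl1, 0.20 for Il1rap, -0.16 for Il18bp and 0.0035 for Il6st in KO-RA against WT-RA, -0.080 for Il1rl1 in KO-O2 against WT-O2 and 0.0041 for Il6st in KO-O2 against KO-RA. The last was 3.6e-05 with DESeq2 and 3.1e-05 with its size factors, and Il1r1 in WT-O2 against WT-RA was -0.057 with GSD408 as WT-RA. The cause was not tested.

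Without 1 mouse at a time, KO-RA against WT-RA ranged from -0.20 to 0.13 for Il33, from -0.13 to 0.22 for Il1rl1 and from -0.19 to 0.024 for Il1rap. KO-O2 against WT-O2 ranged from -0.043 to 0.43 for Il1rl1 and from -0.072 to 0.26 for Il6ra. KO-O2 against KO-RA ranged from -0.22 to 0.12 for Il6ra and from -0.043 to 0.036 for Il6st, and WT-O2 against WT-RA from -0.037 to 0.28 for Il1r1 and from -0.015 to 0.11 for Il6st. The interaction ranged from -0.11 to 0.37 for Il1rl1, from -0.10 to 0.25 for Il1r1, from -0.042 to 0.38 for Il18bp and from -0.11 to 0.012 for Il6st.

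Of the 7 genes, KO-O2 against WT-O2 called 0 at a q below 0.05, 0 with GSD408 as WT-RA, 0 with the striatal and thalamic covariates and 0 to 1 without 1 mouse; the 1 call with the oligodendrocyte covariate was Il1rap and not Il33. WT-O2 against WT-RA called 1 with that covariate, and KO-RA against WT-RA called 0 to 1 without 1 mouse. Of the 70 other genes, WT-O2 against WT-RA called 1 with the oligodendrocyte covariate and 0 to 2 without 1 mouse. KO-RA against WT-RA called 9 and then 5 from the groups alone, 4 at a fold change of 1.5, 0 and 5 with the striatal and thalamic and the oligodendrocyte covariates, and 4 to 11 without 1 mouse. KO-O2 against WT-O2 called 8 and then 5 at a q below 0.05, 0 with the striatal and thalamic covariates and 3 to 8 without 1 mouse. Over all genes, WT-O2 against WT-RA called 107, but 310 with DESeq2, 20 from the groups alone, 46 at a fold change of 1.5, 22 at a q below 0.05, 6 with GSD408 as WT-RA, 294 and 397 with the covariates and 13 to 272 without 1 mouse. KO-O2 against KO-RA called 2, but 13 with DESeq2, 6 without the filter on low counts, 4 from the groups alone, 0 with GSD408 as WT-RA, 5 with either covariate and 1 to 4 without 1 mouse. KO-RA against WT-RA called 1738, but 942 at a fold change of 1.5, 3 and 1154 with the covariates and 1076 without KO-RA mouse GSD489. KO-O2 against WT-O2 called 1142, but 607 at that fold change, 4 with the striatal and thalamic covariates and 675 without KO-O2 mouse GSD495.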
